A study of Mus musculus with 3 samples.

Results

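Among nuclei prepared from mouse sympathetic ganglia, a small set carried the transcripts of skeletal muscle fibres. They were chosen by their own counts: a barcode needed at least 200 genes, at most 5% of its UMIs (unique molecular identifiers, 1 per captured RNA molecule) in mitochondrial genes, and a UMI in at least 3 of Ttn, Neb, Trdn, Mybpc1, Ckm, Myh4, Myh1 and Tnnt3. A UMI of Adipoq, Pecam1, Ptprc or Dbh, which mark adipocytes, endothelial cells, leukocytes and noradrenergic neurons, removed the barcode. The rule kept 108 of 4509 nuclei, or 2.40% (exact Clopper-Pearson 95% interval 1.97 to 2.88%). The nuclei came from 1 library of pooled ganglia (labelled SCG, STG, T2-T4 and CG) of 30 mice given RHS and MC903; the labels do not expand RHS, and MC903 is calcipotriol, a vitamin D analogue that inflames the skin. The preparation text calls these mice MC903-challenged only, while the sample description names both agents. The other libraries were bead-selected CD45+ skin cells, 1 of mice given RHS with MC903 and 1 of mice given MC903 alone (the control). The ganglia library carries the cell type label neuron and a title that names skin, so the label of the library and the muscle genes of these nuclei differ. The labels give no genotype, sex or age for any group. With 1 library a group and no animal recorded for a nucleus, no test between conditions could be run for the muscle nuclei, and the intervals below cover counting error only.

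A skeletal muscle fibre is 1 cell with many nuclei. Its contractile unit, the sarcomere, joins myosin thick filaments with actin thin filaments between Z-discs, and titin and nebulin run along them as a spring and a ruler. A signal at the surface opens the ryanodine receptor of the sarcoplasmic reticulum through the voltage sensor of the T-tubule, and the released calcium starts contraction. Fibre types are named by their myosin heavy chain: Myh7 in slow fibres, and Myh2, Myh1 and Myh4 in the fast types IIa, IIx and IIb. When muscle wastes, from fasting, denervation or glucocorticoids, the ubiquitin ligases Trim63 (MuRF1) and Fbxo32 (atrogin-1) are known to mark proteins for breakdown. Sympathetic nerves also reach muscle fibres, which respond through adrenergic receptors and cyclic AMP.

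The muscle nuclei held 522 to 5583 UMIs (median 1932) and a median of 1029.5 genes, against medians of 1531 UMIs and 1003 genes in the other 4401 kept nuclei. Their median mitochondrial share was 0.108%, against 0.216% in the other nuclei. The 108 nuclei together held 238902 UMIs, against 10197632 in the others. No barcode was shared between the ganglia and skin libraries, and 5 were shared by the 2 skin libraries. Counts were not scaled to gene length, so levels are compared between nuclei and not between genes, and reads of the closely related myosin genes could be assigned to the wrong copy.

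Promoter windows are given for the genes on which the differences among the muscle nuclei turn: Trim63 and the 3 fast myosins that split the nuclei into classes. The 250 bases before each start are from RefSeq, build GRCm38.p6, which is not the build of the counts. Trim63 lies at chr4:134314870-134315119, Myh2 at chr11:67170777-67171026, Myh1 at chr11:67199852-67200101 and Myh4 at chr11:67237562-67237811, all on the plus strand. In the annotation Myh3, Myh2, Myh1, Myh4 and Myh8 follow each other on chromosome 11. Capitals mark matches to the letters given after the sequences.
Trim63: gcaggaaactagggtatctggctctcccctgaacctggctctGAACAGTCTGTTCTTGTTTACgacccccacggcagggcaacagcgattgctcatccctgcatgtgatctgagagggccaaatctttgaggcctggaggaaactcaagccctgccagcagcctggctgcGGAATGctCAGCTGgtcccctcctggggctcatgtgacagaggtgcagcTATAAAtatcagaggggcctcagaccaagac
Myh2: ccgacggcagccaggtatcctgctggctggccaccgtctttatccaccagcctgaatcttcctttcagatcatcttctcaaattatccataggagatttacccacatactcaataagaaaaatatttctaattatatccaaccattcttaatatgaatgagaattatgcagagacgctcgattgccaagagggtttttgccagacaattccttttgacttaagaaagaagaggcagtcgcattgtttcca
Myh1: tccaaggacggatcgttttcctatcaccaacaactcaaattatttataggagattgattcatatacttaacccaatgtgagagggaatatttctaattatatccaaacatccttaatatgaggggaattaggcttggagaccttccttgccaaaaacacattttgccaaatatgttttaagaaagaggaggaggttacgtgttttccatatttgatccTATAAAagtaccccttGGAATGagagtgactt
Myh4: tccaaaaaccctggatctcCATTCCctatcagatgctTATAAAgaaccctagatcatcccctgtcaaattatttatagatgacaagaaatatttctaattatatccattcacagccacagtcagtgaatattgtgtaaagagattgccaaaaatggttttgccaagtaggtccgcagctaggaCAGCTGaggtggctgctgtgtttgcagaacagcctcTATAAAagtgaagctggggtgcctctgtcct

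The Trim63 window held the glucocorticoid response element (AGAACA and TGTTC with any 3 bases between them), read on the minus strand as GAACAGTCTGTTCT and starting 208 bases before the start. The FOXO motif TGTTTAC began 194 bases before the start, directly after it and without overlap. Next came MCAT (CATTCC, found as its complement GGAATG) at 80 bases, the E-box CAGCTG at 72 and TATAAA at 31. Of all 32851 windows of this length, 0.0304% (10 windows) held the glucocorticoid element, 3.17% the FOXO motif, 12.6% MCAT and 7.59% TATAAA, and 4271 windows held the E-box. Myh1 had TATAAA at 32 bases and MCAT at 16, and Myh4 had TATAAA at 213 and 31, MCAT at 231 and the E-box at 67. None of these letters was in the Myh2 window. Of 23 genes picked by the member rule or by the highest ratios below, 16 had a window, and 8 of the 16 held the E-box, 5 MCAT and 2 the MEF2 box (Ppp1r3a and Ttn; 0.508% of all windows). TATAAA was read on the plus strand and the other motifs on both, and a match is a description of the letters only.

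The label was checked with 14 muscle markers outside the rule, among them Ryr1, Cacna1s, Atp2a1, Acta1, Dmd and Casq1. At least 1 of them was seen in all 108 muscle nuclei, against 1362 of the 4338 nuclei with 0 to 2 of the 8 muscle genes. At least 3 were seen in 85 muscle nuclei (78.7%), against 17 of those 4338 nuclei (0.392%). Of the 18 muscle nuclei at the threshold of 3 genes, 8 (44.4%) held 3 markers, and of 63 nuclei that the excluded genes removed, 51 (81.0%) did. These markers are co-expressed with the chosen genes, so the agreement describes the nuclei and does not test the rule. Of the 10 cardiomyocyte markers, Corin, Myl7, Nppa and Tnni3 had 0 UMIs, but the other nuclei held only 11, 1, 5 and 4. Pln, a pump regulator of heart and slow muscle, was higher, with 9 UMIs and a ratio of 13.7 (5.70 to 29.9), while Ryr2, the cardiac ryanodine receptor, had 14 UMIs in the muscle nuclei against 3176 in the others. Among muscle stem cell markers Calcr and Chrdl2 had 0 UMIs in all kept nuclei. Myf5 had 0 in the muscle nuclei and 1 in the others, and Pax7 had 1 and 3. Fgfr4, with 4 UMIs in 2 muscle nuclei and 14 in the others (ratio 12.2), was under the 20 UMIs needed for a call. Megf10 (11 UMIs in 2 nuclei, ratio 3.28) was higher. Adipocyte markers summed to 405 UMIs (1695 CPM, UMIs scaled to a common total, against 4991 CPM in the other nuclei) and spread over 94 of 108 nuclei. Noradrenergic markers gave 448 CPM against 1434, endothelial markers 75.3 against 898, leukocyte markers 46.0 against 837 and erythroid markers 1092 against 1327. Summed ratios were 0.279 for fibroblast, 0.433 for smooth muscle and mural, 0.187 for Schwann and satellite glia, 0.174 for mesothelial and 0.593 for tendon markers, the last from 2 UMIs. Muscle stem cell markers gave 16 UMIs in 3 nuclei (ratio 4.24) and all cardiomyocyte markers together 0.321. The part of free RNA or of second nuclei in these low levels was not tested.

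The 8 chosen genes made up 0.0877 to 12.2% of a muscle nucleus's UMIs (median 3.41%), which is how the nuclei were picked. As summed levels they reached 36856 CPM in the muscle nuclei and 97.6 CPM in the 4338 nuclei with 0 to 2 of the genes. In 100 of the 108 nuclei the share passed 1%, and in 5 it was under 0.5%. At the threshold, the 18 nuclei with exactly 3 of the genes had a median share of 1.89%, and the 17 nuclei with 2 of them and no excluded gene 0.162%. A further 63 nuclei met the muscle part of the rule but held an excluded gene: Dbh in 39, Pecam1 in 26, Ptprc in 20 and Adipoq in 13, with 25 holding several. Their median depth was 3636 UMIs and 35 of them passed 1% muscle UMIs. These mixed nuclei remain among the others, where they held 3668 of the 4623 UMIs of the 8 genes, so ratios over the 4338 nuclei with 0 to 2 genes are given as well.

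**Figure D1:**
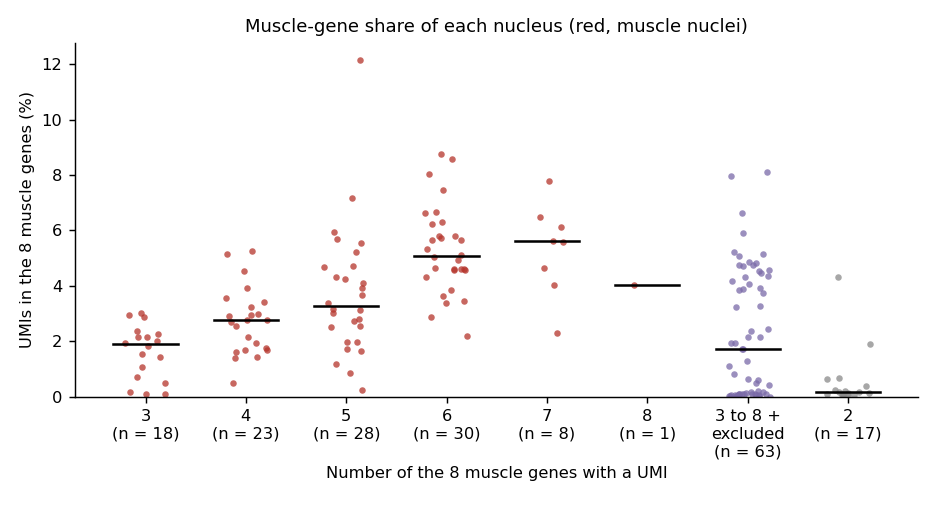
Percent of each nucleus's UMIs in the 8 muscle genes (y axis) by how many of them had a UMI (x axis). Red points are the 108 muscle nuclei, purple the 63 nuclei that also held an excluded gene, grey the 17 nuclei with 2 of the genes and no excluded gene; bars are medians, 1.89% for 3 genes and 5.08% for 6.

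Genes were compared as summed CPM, muscle nuclei over all other kept nuclei, and called higher at a ratio of 2 or more and lower at 0.5 or less. Of 15473 genes with at least 20 UMIs, 7.77% (1202) were higher and 47.3% (7326) lower. In 3684 of the tested genes the muscle nuclei had no UMI, the median ratio was 0.543, and 16.9% of genes were lower with an interval below 1 (4.91% higher with an interval above 1), so a single lower call at low counts says little. All ratios in the next paragraphs are from the contrast that chose the nuclei and are given as a description. List counts below are to be read beside the shares of all tested genes, 7.77% higher and 47.3% lower.

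Thick filament genes stood highest, with all 15 measured members of that list higher and a median ratio of 82.6. Ttn, Mybpc1, Myh1 and Myh4 of that list are genes of the rule, the median is the ratio of Ttn itself, and the ligase Trim63 is listed there too. Titin (Ttn) had 4516 UMIs and was seen in every muscle nucleus, with 1, 30 and 212 UMIs as the lowest, median and highest. Its ratio was 82.6 (78.6 to 86.9), and 435 over the nuclei with 0 to 2 genes. Myosin-binding protein C (Mybpc1) had 880 UMIs in 78 nuclei and a ratio of 99.6. The M-band protein Myom2 was also high (156 UMIs, ratio 115). In the thin filament list 11 of 13 were higher: nebulin (Neb) had 1937 UMIs in 104 nuclei, a median of 13 UMIs a nucleus and a ratio of 79.6. Its relative Nrap, an anchoring protein of growing myofibrils, had 325 UMIs in 75 nuclei (ratio 101, or 430 over nuclei with 0 to 2 genes). Leiomodin (Lmod2), which nucleates actin, had a ratio of 102. The exceptions were Tpm3, a slow and non-muscle tropomyosin, at 0.463, and the capping protein Tmod1 at 0.990 (0.424 to 1.97). At the Z-disc 16 of 19 were higher. Telethonin (Tcap) had a ratio of 110, myopalladin (Mypn) 98.9 and myotilin (Myot) 96.3, while Nebl, the nebulin relative known from heart, had 2 UMIs (ratio 0.0844).

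In the machinery that turns excitation into calcium release 18 of 24 genes were higher, with a median ratio of 8.89. The ryanodine receptor Ryr1 had 292 UMIs in 85 of 108 nuclei, with 0, 2 and 13 UMIs as the lowest, median and highest. Its ratio was 119 (94.7 to 150), and 520 over the nuclei with 0 to 2 genes. Its partner triadin (Trdn) reached 882 UMIs in 89 nuclei (ratio 95.8) and the calcium pump Atp2a1 263 UMIs in 75 (ratio 62.4). The voltage sensor Cacna1s was seen with 22 UMIs (ratio 78.3). The brain-type receptor Ryr3 and the slow and general pump Atp2a2 were lower, at 0.233 (0.00587 to 1.32) and 0.403 (0.246 to 0.624). Among membrane excitability genes 11 of 17 were higher, led by the muscle sodium channel Scn4a (15 UMIs, ratio 49.3) and the chloride channel Clcn1 (25 UMIs, ratio 42.7). Of the dystrophin complex list 9 of 21 were higher. Dystrophin (Dmd) had 4575 UMIs in 105 nuclei, a median of 37 UMIs a nucleus, and a ratio of 32.4 (31.1 to 33.6). Utrophin (Utrn), its relative that in mature fibres is kept to the neuromuscular junction, was lower at 0.267 (0.206 to 0.341).

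Fuel genes were split by route. Of 32 glycogen and glycolysis genes 17 were higher and 2 lower (median ratio 2.49), with Ppp1r3a, which brings protein phosphatase 1 to glycogen, at 113, the branching enzyme Gbe1 at 5.86 and the muscle phosphorylase Pygm at 20.1. Of 34 oxidative and fatty acid genes 10 were higher and 5 lower (median 1.26). Myoglobin (Mb) had only 10 UMIs (ratio 22.5), Pdk4, the kinase that shuts off pyruvate oxidation, 260 UMIs (ratio 2.89), and the coactivator Ppargc1a 101 UMIs (ratio 4.32). The muscle creatine kinase Ckm, a gene of the rule, was sparse in these nuclei, with 14 UMIs in 12 of them and a ratio of 12.4 (6.34 to 23.0). Fast-fibre genes were higher in 16 of 24 and slow-fibre genes in 6 of 9.

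Among 28 myogenic transcription factors 11 were higher and 4 lower. Mef2c had 410 UMIs in 82 nuclei (interval of the ratio 11.6 to 14.5), Sox6, known to hold down slow-fibre genes, 517 UMIs in 94 (ratio 4.94), and Myf6, the myogenic factor of mature fibres, 23 UMIs (ratio 164, 64.8 to 491). Tbx15, a factor of fast glycolytic fibres, had 118 UMIs in 51 nuclei and a ratio of 45.4. Trp63, the p53 relative best known from epidermis, had 257 UMIs in 56 muscle nuclei and 191 UMIs in all others, a ratio of 57.4 (47.4 to 69.6). Only 54 UMIs fell in the whole list of axial and head identity genes. Of these 3 of 22 were higher and 12 lower, against 7.77% and 47.3% of all tested genes. Pax3, which marks trunk and limb muscle, had 12 UMIs in 8 nuclei and a ratio of 42.7. Tbx1, of head muscle, had 8 UMIs in 5.

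**Figure D2:**
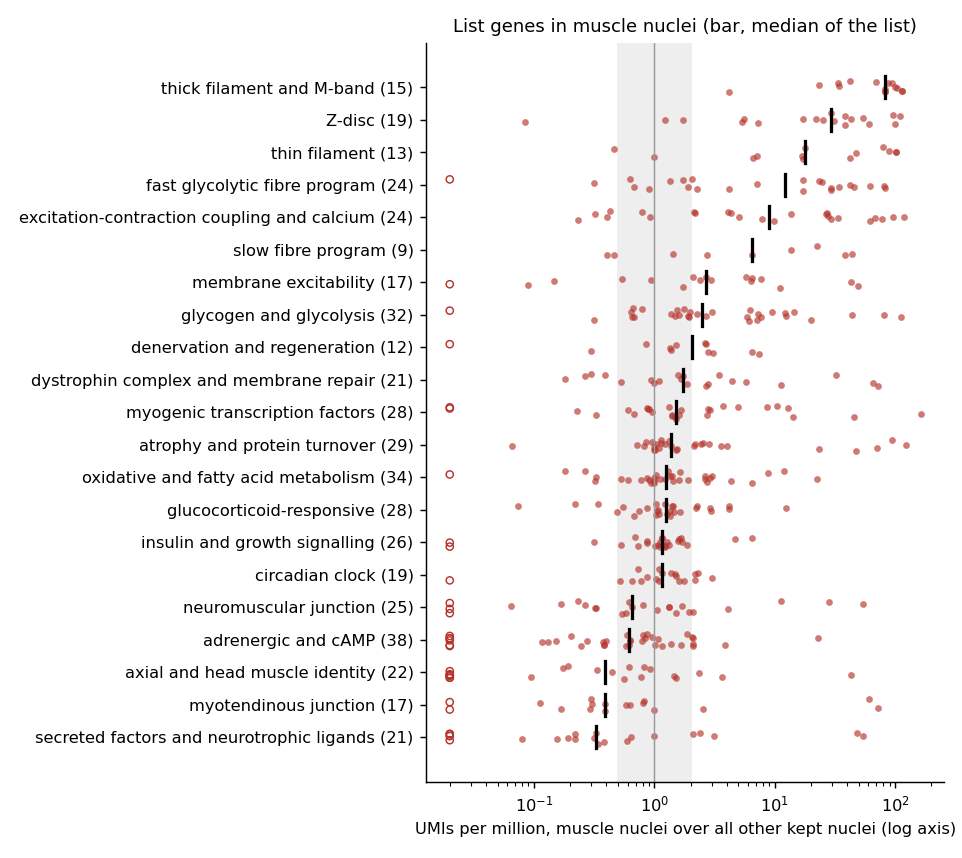
Ratio of CPM, muscle nuclei over all other kept nuclei (x axis, log scale), for each tested gene of 21 lists (y axis, number tested in brackets). Filled points are genes, and open points at the left edge are genes with 0 UMIs in muscle nuclei. Bars are the list medians, and grey is the range of 0.5 to 2. Thick filament genes have the highest median, 82.6, which is the ratio of the rule gene Ttn, and secreted factors the lowest, 0.328.

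Genes of the fibre's special regions were sparse. Of all 15473 tested genes 7.77% were higher and 47.3% lower. Of 25 neuromuscular junction genes 5 were higher and 9 lower: the receptor kinase Musk had 111 UMIs in 44 nuclei (ratio 53.8, 40.3 to 72.1), its adaptor Dok7 had 10 UMIs (ratio 28.5), and the acetylcholine receptor subunits Chrna1 and Chrne had 3 and 1 UMIs. Of 17 myotendinous junction genes 3 were higher, and Col22a1, a collagen of that junction, had 6 UMIs. Beyond the sarcomere, Fgf13, an intracellular member of its family that binds sodium channels, stood out with 646 UMIs in 90 nuclei and a ratio of 47.9. In the adrenergic and cyclic AMP list 6 of 38 were higher and 16 lower, against 7.77% and 47.3% of all tested genes. Of the receptors, Adrb1 had 2 UMIs, against 103 in the other nuclei, and Adrb3, the adipocyte receptor, had 0 against 656. These are counts out of 238902 UMIs in the muscle nuclei and 10197632 in the others. At that depth the 2 UMIs of Adrb1 do not show a lower level. A member at a high level was the adenylyl cyclase Adcy2, with 235 UMIs in 73 muscle nuclei and a ratio of 22.7 (19.3 to 26.6). Circadian clock genes had a median ratio of 1.15, with 4 of 19 higher and 1 lower, and Arntl at 3.02 and Nr1d2 at 2.29 on top. Insulin and growth genes had a median of 1.16, with 2 of 26 higher and 3 lower, and the AMP kinase subunit Prkaa2 at 6.53. The median ratio of all tested genes was 0.543. Secreted factors had 5 genes higher and 13 lower of 21, against 7.77% and 47.3% of all tested genes.

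Protein breakdown genes were led by ubiquitin ligases of muscle. Trim63 had 717 UMIs in 86 of 108 nuclei, with 0, 3 and 40 UMIs as the lowest, median and highest. Its ratio over all other nuclei was 93.3 (81.8 to 107). The 4338 nuclei with 0 to 2 muscle genes held 85 Trim63 UMIs, at most 6 in a nucleus, and gave a ratio of 346. When 5 of the 8 genes were asked for, 67 muscle nuclei were left and the dropped ones were counted among the other nuclei. The ratio was then 25.7. Fbxo32 had 596 UMIs in 78 nuclei and a ratio of 47.4 (42.1 to 53.3). Both ligases were present in 68 nuclei, Trim63 alone in 18, Fbxo32 alone in 10 and neither in 12. Trim54 (MuRF3) stood at 122 and Klhl38 at 71.1. In the whole list 12 of 29 were higher, 1 was lower and the median ratio was 1.38. Foxo1, a transcription factor known to drive both ligases, was at 2.54 (2.21 to 2.90), and Foxo3 at 1.10. After thinning to 1400 UMIs, Trim63 was seen in 63 of 82 muscle nuclei (76.8%) and in 1.63% of 2393 other nuclei, against 79.6% and 2.48% before thinning. The median ratio of 28 glucocorticoid-responsive genes was 1.26, with 7 higher and 4 lower. Arrdc2 (12.4), Sesn1 (4.19) and Klf15 (4.17) were the highest, while Fkbp5 was at 0.674 (0.573 to 0.788), Zbtb16 at 1.45 and the receptor Nr3c1 at 1.06. Of 12 denervation genes 6 were higher and 2 lower, with Hdac4 at 2.77 and Runx1 at 2.62. With nuclei of the excluded genes let in, the interval of Runx1 was 1.17 to 1.66, under the call of 2, and Pdk4, at 2.89 above, was at 1.70 (1.53 to 1.88); with each nucleus weighted equally Runx1 was at 1.56.

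Of genes for which the level of the other nuclei would give at least 50 UMIs, and leaving out the excluded genes, which are 0 by the rule, those with the lowest ratios were the oxidase Nox4 (1 UMI, ratio 0.0160), the macrophage receptor Mrc1 (2 UMIs, 0.0374), Il1rapl1 (3 UMIs, 0.0444), the complement gene C7 (5 UMIs, 0.0474), Dlgap1, Cntn3, elastin (Eln) and Pid1. They include genes known from macrophages, neurons and connective tissue, and their ratios ran up to 0.0552. Dlgap1 was at 1.58 once nuclei with the excluded genes were let in.

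Myosin heavy chains were sparse in the nuclei. Of the 108, 41 held at least 3 UMIs of Myh1, Myh2, Myh4 and Myh7 together, 14 held 1 or 2, and 53 held none. A myosin led a nucleus when it held at least 60% of those UMIs. Myh2 led 9 of the 41 nuclei (interval 10.6 to 37.6%), Myh1 26 (63.4%, 46.9 to 77.9%) and Myh4 4 (9.76%, 2.72 to 23.1%), and in 2 none led. The summed UMIs were 94 for Myh2, 329 for Myh1 and 35 for Myh4. Myh7 had 0 UMIs and led 0 of the 41 nuclei (interval 0 to 8.60%), which sets no limit on slow fibres. The developmental myosins Myh3 and Myh8 had 3 and 0 UMIs. Myh1 and Myh2 were seen together in 7 nuclei, Myh1 and Myh4 in 4, and Myh2 and Myh4 in 1. The rule asked for Myh1 and Myh4 among its genes and not for Myh2 or Myh7, and without those 2 genes it kept 105 nuclei.

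**Figure D3:**
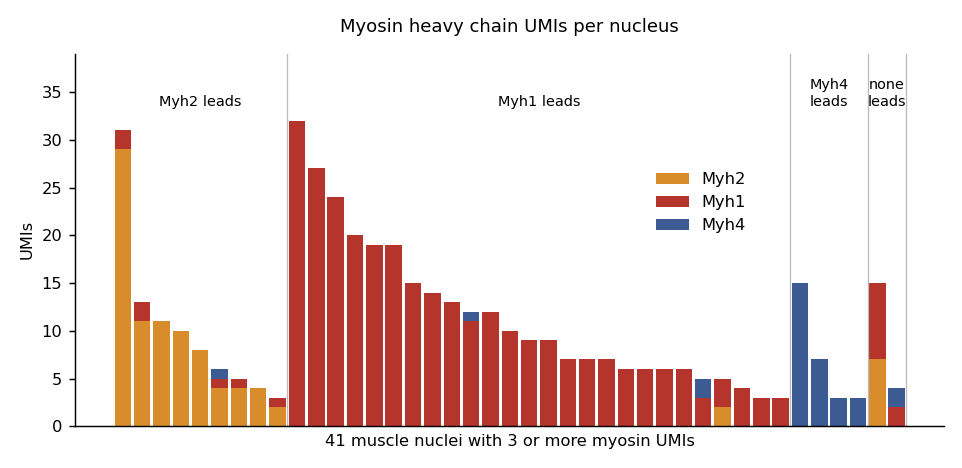
UMIs of Myh2, Myh1 and Myh4 (y axis, stacked) in each of the 41 muscle nuclei with at least 3 myosin UMIs (x axis), grouped by the leading myosin. Most bars are of 1 colour; 26 nuclei are led by Myh1.

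Against Myh1-led nuclei, Myh2-led nuclei had 10.8% of 604 tested genes higher (65) and 15.2% lower (92). The 9 Myh2-led nuclei held 20238 UMIs and the 26 Myh1-led 54836. Musk had 22 UMIs in 6 of 9 Myh2-led nuclei, against 11 UMIs in 7 of 26 Myh1-led nuclei (ratio 5.42, 2.52 to 12.4). The cyclic GMP kinase Prkg1 had 71 UMIs in 7 Myh2-led nuclei against 35 UMIs in 9 Myh1-led nuclei (ratio 5.50, 3.62 to 8.49). Single nuclei weighed much here: 1 Myh2-led nucleus of 5583 UMIs held 11 of the 22 Musk UMIs. Likewise 28 of the 71 Prkg1 UMIs lay in 1 Myh2-led nucleus, and the intervals do not cover this spread. Agbl1, a tubulin deglutamylase-like enzyme, followed with 53 against 39 UMIs (ratio 3.68, 2.39 to 5.72), and the lipase Lpl with 13 against 9 (ratio 3.91, 1.55 to 10.4). The orphan receptor Esrrg, an activator of oxidative genes, was at 2.01 (1.12 to 3.56). Lower in Myh2-led nuclei were the catenin Ctnna3 (6 UMIs against 141, ratio 0.115), Myom2 (4 against 50, ratio 0.217), the kinase Mylk2 (1 against 19, ratio 0.143) and Sox6 (21 against 130, ratio 0.438). Ebf2 and Prrx1, transcription factors of fat and connective tissue, were also higher in the Myh2-led nuclei, with 16 and 15 UMIs against 5 and 5, and the part of second nuclei or free RNA in that difference was not tested.

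Between Myh1-led and Myh4-led nuclei 18.6% of 531 genes were higher (99) and 10.9% lower (58), and the Myh4-led group was only 4 nuclei with 13485 UMIs. Gys1, the muscle glycogen synthase, had 26 UMIs in 16 Myh1-led nuclei and 0 in the Myh4-led ones, and Pik3r1, a subunit of the insulin-responsive kinase, 49 and 0. Xirp2, an actin-binding protein of the Z-disc and intercalated sites, had 189 UMIs in 21 of 26 Myh1-led nuclei against 14 UMIs in 3 of 4 Myh4-led nuclei (ratio 3.32, 1.93 to 6.19). Actn2 was at 3.38 (1.25 to 12.8), with 55 UMIs against 4. Trp63 had 33 UMIs in Myh1-led nuclei and 25 in Myh4-led nuclei, a ratio of 0.325 (0.187 to 0.569), and was seen in all 4 Myh4-led nuclei. Sox6 was at 0.450 (0.335 to 0.610).

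Muscle nuclei without myosin UMIs were also set against those with at least 3, a comparison chosen after the data were seen. The 53 myosin-free nuclei held 115498 UMIs (median 1928) and the 41 myosin-carrying nuclei 91703 (median 2098). Of 1865 tested genes 9.71% were higher in myosin-free nuclei (181) and 8.04% lower (150), with a median ratio of 1.02. Trim63 had 548 UMIs in 49 of 53 myosin-free nuclei and 108 UMIs in 28 of 41 myosin-carrying nuclei, a ratio of 4.03 (3.27 to 5.00). As a share of a nucleus's UMIs it was 0 to 1.66% (median 0.339%) in myosin-free nuclei, against 0 to 0.653% (median 0.0880%) in Myh1-led, 0 to 0.341% (median 0.0805%) in Myh2-led and 0 to 0.387% (median 0.190%) in Myh4-led nuclei. The groups overlapped, but 22 myosin-free nuclei held 10 or more Trim63 UMIs, against 3 myosin-carrying ones. Fbxo32 had 419 UMIs in 45 myosin-free nuclei and 120 UMIs in 25 myosin-carrying nuclei (ratio 2.77, 2.26 to 3.43).

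Other genes higher without myosin included metabolic enzymes, metallothioneins and a transcription factor of denervated muscle. Pfkfb3, which makes the activator of glycolysis fructose bisphosphate, had 56 UMIs in 22 myosin-free nuclei against 3 UMIs in 1 myosin-carrying nucleus (ratio 14.8, 4.82 to 74.0). The phosphatidate phosphatase Lpin2 had 50 UMIs in 19 nuclei against 2 in 2 (ratio 19.8, 5.22 to 168). Slc39a14, a zinc and iron importer, had 125 UMIs in 32 nuclei against 21 in 12 (ratio 4.73, 2.96 to 7.90). The alanine transaminase Gpt2 was at 5.08, the AMP deaminase Ampd3 at 4.76, and the zinc-binding metallothioneins Mt2 at 3.97 and Mt1 at 3.24. Runx1, which rises in denervated muscle, had 78 UMIs in 18 myosin-free nuclei against 11 UMIs in 8 myosin-carrying nuclei (ratio 5.63, 2.98 to 11.7), and without the 4 muscle nuclei of 5 or more Runx1 UMIs the ratio was 2.06 (0.982 to 4.61). Against 9.71% of all tested genes, 3 of the 4 denervation genes measured were higher (Ampd3, Ncam1 and Runx1). So were 3 of 18 atrophy genes (Trim63, Fbxo32 and Ube4b, the last at 2.51 with an interval of 0.965 to 7.69). Of 14 glucocorticoid-responsive genes 3 were higher (Errfi1, Mt2 and Mt1). Without the 4 Runx1-rich nuclei Ncam1 was at 1.34 (0.633 to 2.93). With nuclei of the excluded genes let in, Mt1 was at 1.09 (0.724 to 1.68) and Errfi1 at 0.909 (0.584 to 1.45). Pdk4, Fkbp5 and Zbtb16 of that last list were at 0.692, 0.692 and 0.776, Foxo1 at 1.06 and Nr3c1 at 0.967.

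**Figure D4:**
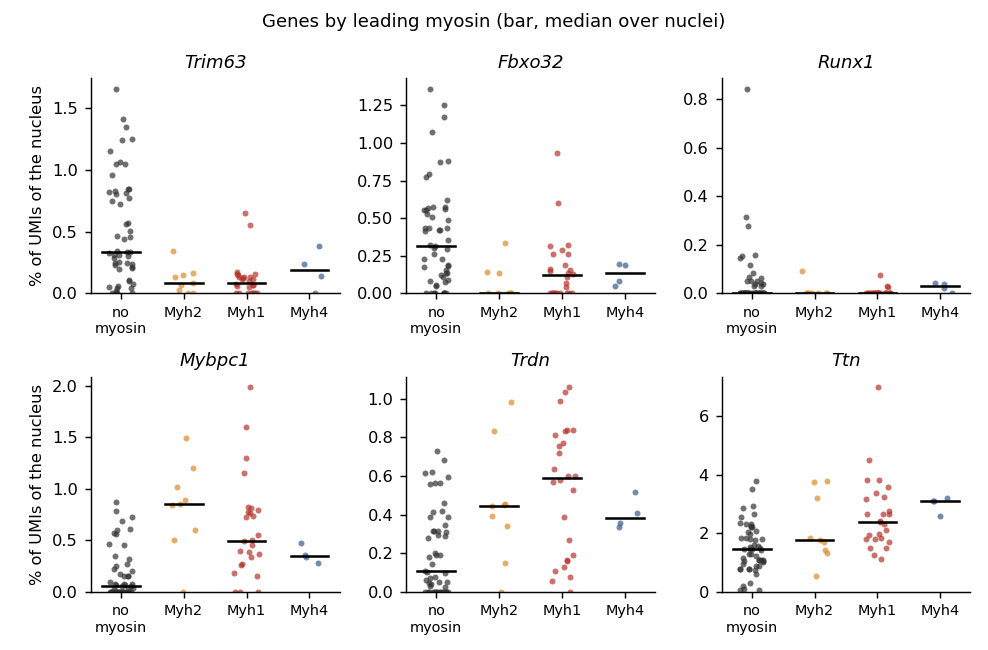
Percent of each nucleus's UMIs in 6 genes (y axis) for 53 nuclei with no myosin UMI and nuclei led by Myh2 (9), Myh1 (26) or Myh4 (4); points are nuclei and bars medians. Trim63 has a median of 0.339% without myosin and 0.0880% in Myh1-led nuclei, while the Mybpc1 median in Myh1-led nuclei is 0.495%.

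Some structural genes were lower in myosin-free nuclei, where 8.04% of all 1865 tested genes were lower. They were 2 of 9 thin filament, 2 of 13 Z-disc, 4 of 13 excitation-contraction coupling and 2 of 14 dystrophin complex genes. The rest of these lists lay between the calls, and with so few genes a list some counts are near the share of all genes. The 18 skeletal muscle markers, among them Ttn and Neb, summed to 44338 CPM in myosin-free against 71241 CPM in myosin-carrying nuclei (ratio 0.622). The 8 rule genes, Myh1 and Myh4 included, had a median share of 2.54% in myosin-free against 5.14% in myosin-carrying nuclei. Their share was under 0.5% in 3 myosin-free and 0 myosin-carrying nuclei. The ratios of structural genes below are to be read beside these values. Of those that follow, Mybpc1, Trdn, Neb, Ttn and Tnnt3 are genes of the rule. Mybpc1 had 210 UMIs in myosin-free and 580 in myosin-carrying nuclei (ratio 0.287, 0.244 to 0.337), Trdn 267 and 508 (ratio 0.417), Neb 660 and 1132 (ratio 0.463), and Xirp2 148 and 277 (ratio 0.424). The fast light chains Myl1 and Mylpf were at 0.189 and 0.198, the voltage sensor Cacna1s at 0.187, Ampd1 at 0.176, the mitochondrial creatine kinase Ckmt2 at 0.238 and Mef2c at 0.397. Agbl1 had 4 UMIs against 107 (ratio 0.0297, 0.00794 to 0.0782), and Fam13a 15 against 102 (ratio 0.117). Other muscle genes differed less: Ttn was at 0.614, Dmd at 0.773, Ryr1 at 0.753, Tnnt3 at 0.873 and Nrap at 1.23 (0.970 to 1.56). Of 13 thick filament genes 7 were lower, among them Myh1, Myh2 and Myh4, which the choice of nuclei fixed, and 1 was higher, Trim63, which is listed there too. Markers of other cells moved as well: adipocyte markers were at 1134 CPM in myosin-free against 1472 CPM in myosin-carrying nuclei (ratio 0.770, 0.601 to 0.987), erythroid markers at 1091 against 796 CPM (1.37, 1.02 to 1.85), and noradrenergic markers at 407 against 447 CPM (0.910, 0.586 to 1.42). Muscle stem cell markers gave 15 UMIs in myosin-free and 0 in myosin-carrying nuclei. All 16 UMIs of these markers in the 108 muscle nuclei fell in 3 nuclei, with 0.371% of a nucleus's UMIs as the highest share. The part of these markers of other cells in the differences was not tested. A myosin-free nucleus had to reach 3 of the 8 genes without Myh1 or Myh4. With both left out of the rule for all nuclei the Trim63 ratio was 3.92, and in members of at least 1000 UMIs it was 3.96. It was 2.68 with 5 of the 8 genes required and 1.70 (1.44 to 2.03) when nuclei with the 4 excluded genes were let in. In that wider set Fbxo32 was at 1.15 (0.971 to 1.36), Runx1 at 2.59 and Pfkfb3 at 3.51, and whether the mixed nuclei hold RNA of several nuclei was not tested.

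**Figure D5:**
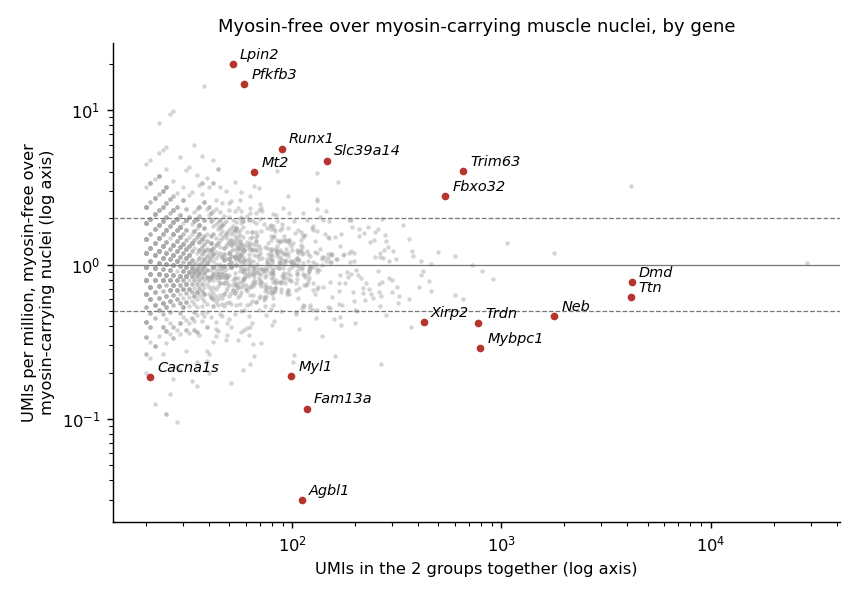
Ratio of CPM, myosin-free over myosin-carrying muscle nuclei (y axis, log scale), against the UMIs of both groups together (x axis, log scale) for each tested gene with UMIs in both groups. Dashed lines mark 2 and 0.5; Trim63 at 4.03 and Fbxo32 at 2.77 lie above the upper line, Mybpc1 at 0.287 below the lower one.

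A few nuclei carried genes that mature innervated fibres keep low. Over the 796 genes with at least 50 UMIs in the muscle nuclei, the 5 top nuclei held a median of 26.5% of a gene's UMIs. They held 65.3% of those of Runx1 and 67.5% of Ncam1. Genes of other kinds were also uneven, with 73.4% for the adult myosin Myh2 and 76.5% for Ebf2, of fat and connective tissue. The nucleus with most Runx1 held 34 UMIs of it with 16 of the adhesion molecule Ncam1 and 10 of Trim63. In 2 others 10 and 11 Runx1 UMIs came with 18 and 7 of Ncam1, 3 and 2 of Musk, 2 and 2 of the myogenic factor Myog, and 1 and 1 of the fetal acetylcholine receptor subunit Chrng, with 0 Trim63 UMIs. All 3 lacked a leading myosin. The nucleus with 11 Runx1 UMIs also had the highest share of muscle stem cell markers among the muscle nuclei, 0.371% of its UMIs. The stretch-induced gene Ankrd1 had 66 UMIs in 20 nuclei, 59.1% of them in 5. In 1 nucleus 2328 UMIs (51.0%) were of the predicted gene Gm42418, which bears on the ratio of that gene in myosin-free over myosin-carrying nuclei (3.21).

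The same 8 genes were looked for in the skin libraries, where CD45+ bead selection would remove muscle fibres. They summed to 238 UMIs in the RHS library (interval 4.00 to 5.18 CPM) and 359 UMIs in the control library (interval 5.93 to 7.32 CPM), a ratio of 0.691 (0.584 to 0.816). By the rule 0 of 13068 RHS cells and 1 of 12723 control cells were muscle-like. That control cell held 1121 UMIs, with 85 of Acta1, 58 of Mylpf, 17 of Tnnt3 and 9 of Myh4. Neb made up 136 of the 238 and 199 of the 359 UMIs, in 113 and 169 cells, and Trim63 had 23 UMIs in the RHS and 210 in the control library. With 1 library each, these values compare the libraries and not the treatments.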

How the data were processed

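Every value was computed from the UMI counts that the authors deposited, which are integers per gene and barcode without scaling, per the file headers. Per the labels and the series' design the ganglia library used 10x 3' v3.1 chemistry, and its header names Cell Ranger 7.1.0. R 3.6.0, Seurat 5.1.0 and the build GRCm39 come from the submitters' processing notes, where they have no role attached. How the skin barcodes were called is not stated in these sources. The ganglia library held 4706 barcodes, 11101393 UMIs and 32285 genes, and 1 barcode with under 200 genes and 196 over 5% mitochondrial UMIs were removed. Skin cells were kept at 200 genes and at most 20% mitochondrial UMIs. No cell was clustered.

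Counts were summed over nuclei and given as CPM. Ratios have exact conditional binomial 95% intervals, levels exact Poisson and shares exact Clopper-Pearson intervals. Genes with at least 20 UMIs in both groups together were compared, and no p-value was computed because nuclei are not replicates. The floor for a count of 0 was 3 UMIs. The method was tested on simulated data. Thinning used 1400 UMIs, which left out 26 muscle nuclei and 2008 others. Doublets were treated only by the excluded genes of the rule. Scrublet (scanpy 1.11.5, 6% expected), an alternative, marked 2 of 4509 nuclei and so did not separate doublets. The other tools were Python 3.11.15, numpy 2.4.6, scipy 1.17.1, pandas 2.3.3 and matplotlib 3.10.9.

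The members, the 21 gene lists and the 13 marker classes were chosen with earlier results of these data known. Genes were named as the genes of the rule, the 15 highest and 8 lowest ratios with 50 UMIs measured or looked for, up to 4 list members with the most and 2 with the fewest UMIs, and, between Myh1-led and Myh4-led nuclei, up to 8 in each direction. Other genes that are named, the comparison of myosin-free nuclei, with its 20 highest and 12 lowest genes, and that of Myh2-led nuclei were chosen after values were seen. Predicted, ribosomal and sex-linked genes were not named, except Gm42418. Promoters were read from the RefSeq table, of which the counts' build has no counterpart here. Some genes are not reported here.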

Additional observations from a re-analysis of the deposited data

How the results depend on the processing

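The share of muscle nuclei was 1.49% with 5 of the 8 genes required (67 nuclei) and 3.79% when the 4 excluded genes were not used (171 nuclei). With at least 100 UMIs per gene, 612 genes were higher and 4498 lower in muscle nuclei. With the excluded genes not used, 4297 genes were lower in muscle nuclei, 230 were higher and 109 lower in Myh1-led nuclei, and 1031 were higher and 389 lower in myosin-free nuclei. With at least 50 UMIs per gene, 8 were higher and 13 lower in Myh1-led nuclei, and 44 were higher and 47 lower in myosin-free nuclei. With 5 genes required, 95 were higher in myosin-free nuclei. Fewer genes or nuclei enter under the stricter settings, and muscle nuclei dropped by a stricter count of muscle genes are counted among the other nuclei. Otherwise the cause was not tested. Of the values of shares and counts, 84 stayed within their interval or 1.5 times the count and 18 did not. The shares and gene counts above are among those 18, and not all of them are listed. Without excluded genes Dlgap1 turned to 1.58 in muscle nuclei and Errfi1 to 0.909 in myosin-free nuclei. Of the named genes' ratios under all settings, 295 over other nuclei and 192 of myosin-free over myosin-carrying nuclei stayed in their interval, while 111 and 25 left it. Trim63 stayed between 25.7 and 346 over other nuclei and between 1.70 and 4.44 in myosin-free nuclei, and Fbxo32 between 26.4 and 84.8 and between 1.15 and 2.98. Subtracting free RNA, set at 30.4% of muscle-nucleus UMIs, gave 1475 higher genes. That share is the summed ratio of the markers of the 4 excluded classes, the excluded genes themselves left out. It was subtracted gene by gene, so single markers with a higher ratio, such as Plin4 at 0.810, stayed over 0. Settings with at least 0.5% muscle UMIs, 1000 UMIs a nucleus or without Runx1-rich nuclei were added after seeing the data. Depth limits genes with few UMIs: 3 UMIs over the muscle nuclei are 12.6 CPM. No paired analysis was possible because each group had 1 library.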
